A study of Rattus norvegicus with 35 samples.

Results

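The genes described here are the molecular chaperones and protein folding enzymes of the rat mammary gland: the heat shock protein families HSP70, HSP110, HSP90 and small HSPs, the J proteins, the chaperonins of mitochondria and cytosol, calreticulin and calnexin, the protein disulfide isomerases and the peptidyl-prolyl isomerases. They were chosen by gene symbol alone (Hspa, Hspb, Hspd, Hspe, Hsph, Cct, Pdia, Dnaja, Dnajb, Dnajc or Fkbp followed by a digit, a symbol starting Hsp90, or Calr, Canx, P4hb, Ppib or Tcp1), and 1 gene of the HSP70 family was left out by the rule. This gave 79 of the 10411 genes that the array names. Total RNA of 35 rat tissue samples was read on the RAE230A oligonucleotide array, with 11 normal mammary glands and 24 mammary tumours. The tumours were frozen and had been induced with NMU (N-methyl-N-nitrosourea), an alkylating carcinogen that gives mammary tumours in rats. The labels give no strain, age, dose, treatment schedule or animal for either group, and no storage for the normal glands. Of the normal glands 8 are titled NewN, and the others are titled X27.1N, X28.1N and Young. The tumours have titles beginning with X, and the numbers 27 and 28 stand in the titles of both a gland and a tumour. No label ties a sample to an animal, so the p-values measure only the spread between these samples, which may be technical in part.

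Chaperones bind proteins that are unfolded or still being made and keep them from clumping. HSP70 proteins do this in cycles of ATP use that J proteins start and nucleotide exchange factors such as HSP110 end, and HSP90 and the barrel-shaped chaperonins take over particular clients. In the endoplasmic reticulum, where secreted and membrane proteins such as those of milk and of the matrix are folded, calreticulin and calnexin hold glycoproteins, disulfide isomerases join cysteines and prolyl isomerases turn proline bonds. Many genes of the cytosolic set respond to heat shock factor, and many of the endoplasmic reticulum set respond to the unfolded protein response.

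The promoters of some of these genes carry the sequence elements of these responses, and are shown here because they group members whose values follow. In the RefSeq windows of assembly GRCr8, which run from 250 bases before to 50 bases after the start of a gene, 65 members had a window. The heat shock element was searched on both strands as GAA, any 2 bases, TTC, any 2 bases and GAA, or its reverse, TTC, any 2 bases, GAA, any 2 bases and TTC. It stood in 5 of the 65 member windows (7.69%) and in 202 of all 27457 windows (0.736%). The matches are in capitals below, which are the element, and each sequence is read 5′ to 3′ on the strand of its gene. The Hsph1 stretch lies at chr12:10427317-10427359 (plus strand), Dnaja1 at chr5:60638405-60638433 (plus), Cct4 at chr14:101193074-101193102 (plus), Hspd1 at chr9:64084247-64084287 (minus) and Hspe1 at chr9:64084247-64084294 (plus).
Hsph1: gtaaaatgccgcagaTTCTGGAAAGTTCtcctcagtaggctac
Dnaja1: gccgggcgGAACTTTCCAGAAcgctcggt
Cct4: gcgtcgctTTCTGGAAGGTTCgtggaggc
Hspd1: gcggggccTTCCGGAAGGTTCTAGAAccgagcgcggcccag
Hspe1: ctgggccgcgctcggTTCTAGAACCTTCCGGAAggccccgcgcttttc

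Hspd1 and Hspe1 lie head to head, and their windows share 211 bases, chr9:64084077-64084287. The same 2 overlapping matches therefore appear in both, once on each strand. The match of Hsph1 begins 36 bases before the start of the gene, while those of Dnaja1 and Cct4 lie after it, from base 10 and base 26.

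The endoplasmic reticulum stress element was searched on both strands as CCAAT, any 9 bases and CCACG, or its reverse, CGTGG, any 9 bases and ATTGG. It stood in 4 of the 65 member windows (6.15%), those of Calr, Canx, Dnajc3 and Hsp90b1, and in 21 of all 27457 (0.0765%). Capitals again mark the element in the stretches chr19:40213120-40213168 (Calr, plus), chr10:35158054-35158102 (Canx, minus), chr15:102432519-102432567 (Dnajc3, plus) and chr7:23012332-23012484 (Hsp90b1, minus). Hsp90b1 holds 2 matches, in opposite orientation.
Calr: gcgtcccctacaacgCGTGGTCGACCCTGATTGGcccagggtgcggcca
Canx: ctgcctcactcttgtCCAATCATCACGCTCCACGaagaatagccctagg
Dnajc3: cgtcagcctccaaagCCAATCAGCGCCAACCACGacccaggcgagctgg
Hsp90b1: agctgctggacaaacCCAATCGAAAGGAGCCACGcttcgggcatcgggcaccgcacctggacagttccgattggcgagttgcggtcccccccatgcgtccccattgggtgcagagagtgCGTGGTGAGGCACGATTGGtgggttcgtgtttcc

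A match describes letters only and is not a measured binding site. What these genes did in the tumours depended on how the arrays were scaled. Of the 5 genes with the heat shock element, Hspd1, Hspe1 and Cct4 were called lower with the deposited scaling, by 1.18-fold, 1.15-fold and 1.13-fold, and Hsph1 and Dnaja1 were not called. After quantile normalization, which gives every array the same range of signals, those 3 were not called, and Hsph1 (log2 change 0.21) and Dnaja1 (0.22) were called higher. Of the 4 genes with the endoplasmic reticulum element, Calr was called higher with the deposited scaling. After quantile normalization Calr (0.46), Canx (0.23) and Hsp90b1 (0.29) were called higher and Dnajc3 (-0.06) was not called.

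The arrays differed between the groups in the range of their signals. Signals are the brightness of probe sets, each made of several short probes against 1 transcript. The array medians lay between 158 and 176, but the 90th percentile of signal averaged 718 ± 38.6 (SD, n = 11) over normal glands against 596 ± 46.1 (SD, n = 24) over tumours. Degraded RNA raises the 3' to 5' ratio of the Gapdh control probe sets, and this ratio averaged 1.13 ± 0.126 over normal glands against 1.02 ± 0.0795 over tumours (SD). Cell type markers moved with the groups as well. All 7 measured adipocyte markers and all 9 skeletal muscle markers were lower in tumours, with summed signals of 9799 to 26372 against 195 to 4443 for fat and of 1376 to 21238 against 1053 to 1845 for muscle. All 5 fibroblast markers were lower (sums 18202 to 40690 against 469 to 31684), as were 3 of 3 endothelial, 4 of 5 lymphocyte, 3 of 5 smooth muscle and myoepithelium and 2 of 3 macrophage markers. Of 7 luminal epithelium markers 5 were higher (sums 2825 to 8888 against 377 to 23713). Of the defining markers, 1 of fat, 2 of muscle and 1 of lymphocytes lay at the floor set on low signals in all tumours. In such bulk tissue fewer cells of a type and less RNA per cell cannot be told apart, and the part of these cell types in the results below was not tested.

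The comparison of tumours with normal glands asked which genes differ between them. Most members changed little. Calls were made where limma's p, adjusted by Benjamini-Hochberg over all 15866 probe sets, was under 0.05, and changes are log2, tumour minus normal, with their standard error (SE). Of the 79 members 18 (22.8%) were higher and 30 (38.0%) lower in tumours, and 31 were not called. Over all genes 31.4% were called higher and 27.5% lower, and the counts by role group below are to be read beside these shares. The median change of the members was -0.07, against 0.02 for all genes. Only 3 members changed by over 2-fold, all of them lower: the small heat shock protein Hspb1, the J protein Dnajc4 and the prolyl isomerase Fkbp9. No member rose by 2-fold, and 12 called members changed by over 1.5-fold in either direction.

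**Figure D1:**
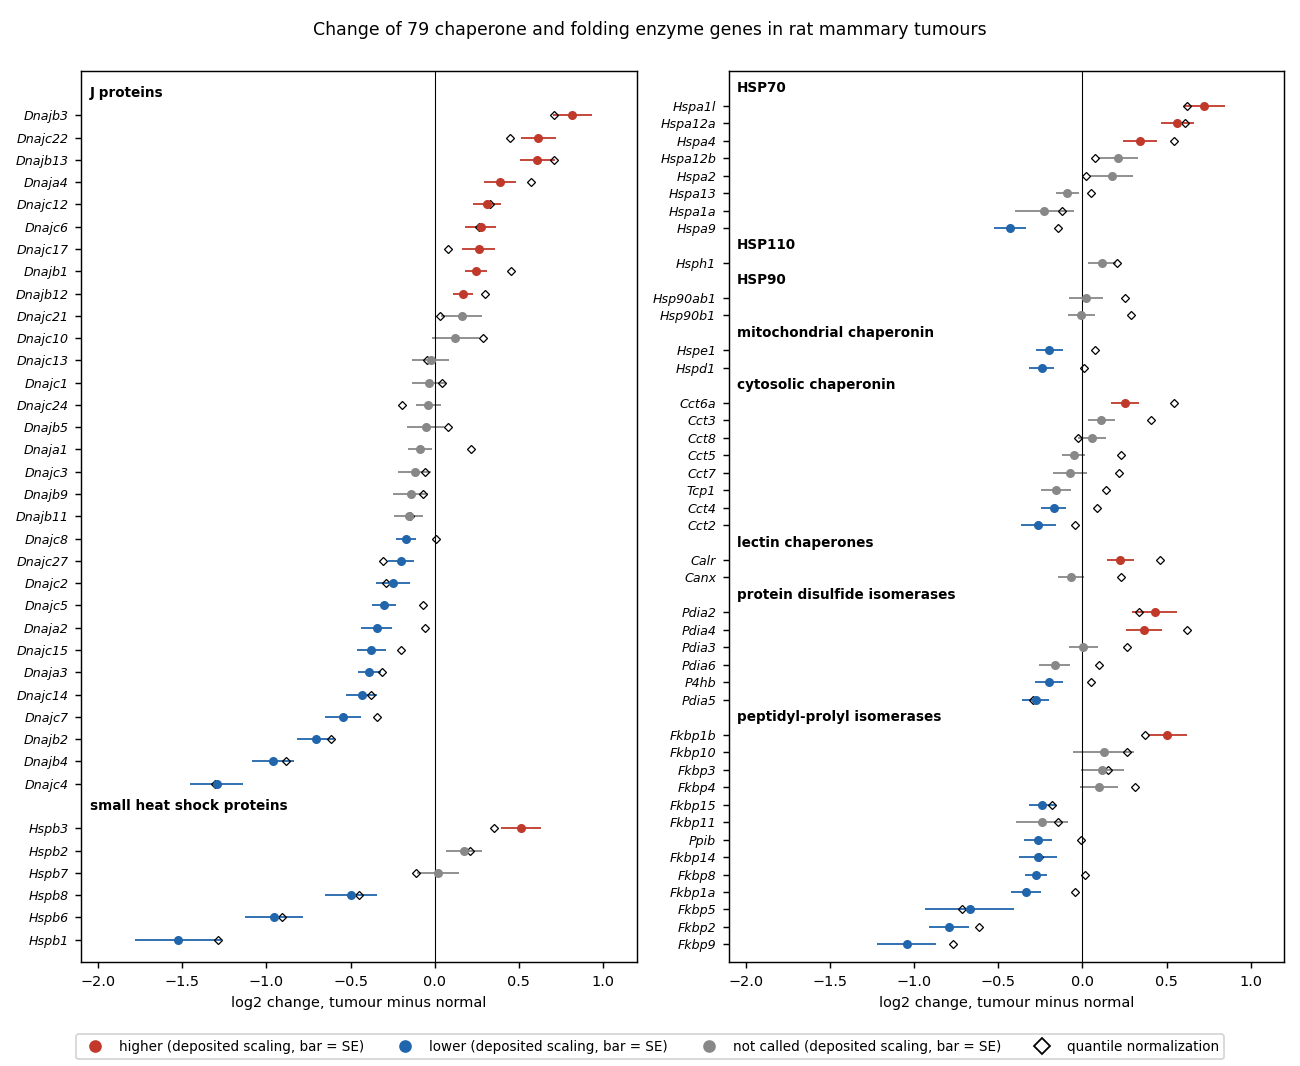
Log2 change (x axis) of each of the 79 members, grouped by role, with filled points for the deposited scaling (bar = SE of the limma fit, colour = call) and open diamonds for the same arrays after quantile normalization. Only Hspb1, Dnajc4 and Fkbp9 pass a 2-fold fall, and for the cytosolic chaperonin, HSP90 and lectin chaperones most diamonds lie to the right of the points.

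How many members were called in each direction depended on how the arrays were scaled. After quantile normalization 27 members (34.2%) were higher and 17 (21.5%) lower, where all genes had 33.9% and 22.5%. The share of calls that were higher went from 37.5% to 61.4%. This followed the brightness of the probe sets. Among all 572 genes with a mean signal of at least 1000, the median change was -0.13 with the deposited scaling and 0.10 after quantile normalization, and among the 14 members that bright it was -0.13 and 0.16. For the 28 members between 100 and 300 the medians were -0.15 and -0.09, against 0.07 and 0.07 for all 4583 genes in that range. Under 100 the medians were 0.19 and 0.05 for 10 members, against 0.12 and 0.03 for all 2212 genes there. Which scaling is nearer to the tissue was not tested.

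**Figure D2:**
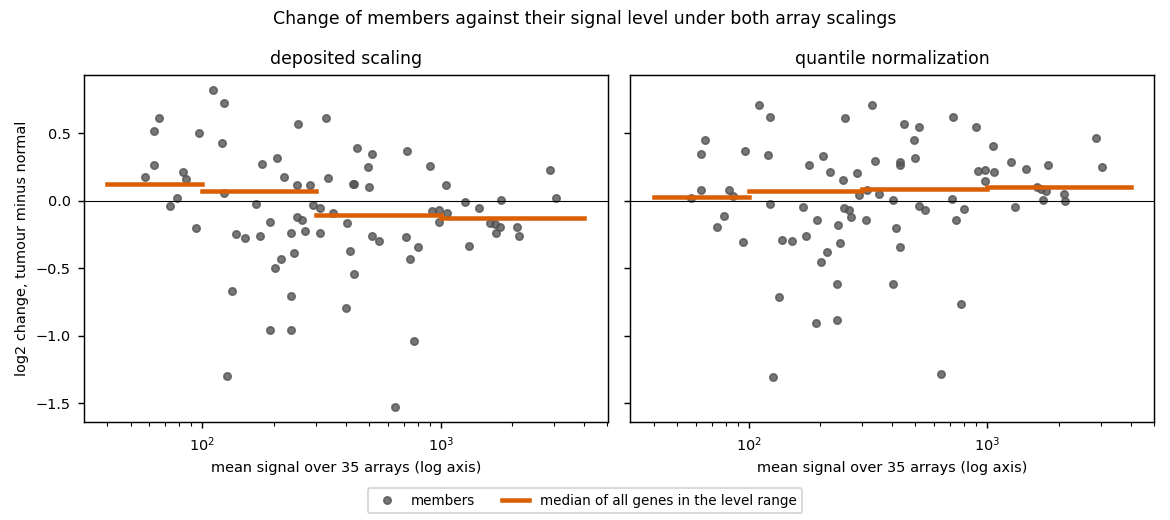
Log2 change of each member (y axis) against its mean signal over 35 arrays (x axis, log), with the deposited scaling on the left and after quantile normalization on the right, and orange lines for the median of all genes in each range of signal. From a signal of 300 upwards the medians of all genes lie below 0 on the left (-0.11 and -0.13) and above 0 on the right (0.09 and 0.10).

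The choice of normal glands mattered as well. Against X27.1N, X28.1N and Young alone, 8 members (10.1%) were higher and 7 (8.86%) lower, where all genes had 6.85% and 11.1%. With 3 glands the test has less power. Over 16 alternatives, 9 of the 48 called members stayed called in every one in which they were tested. These were the lower Dnajb4, Dnajc4, Dnajc15, Fkbp2, Fkbp9 and Pdia5, and the higher Dnaja4, Dnajb3 and Hspa1l. Only Dnajc4, Dnajb4, Fkbp9 and Fkbp2 among them changed by over 1.7-fold on the lower side, and Dnajb3 on the higher. Dnaja3, Dnajb2, Dnajb13, Dnajc7, Dnajc14, Dnajc22, Fkbp1b, Hspa4, Hspa12a, Hspb1 and Hspb6 lost the call only against X27.1N, X28.1N and Young alone.

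Small heat shock proteins are ATP-independent chaperones that hold unfolded proteins, and several are abundant in muscle. Of 6 members 3 were lower, 1 was higher and 2 were not called. Hspb1 (HSP27, which also binds actin filaments) had signals of 329 (X27.1N) to 2049 (X28.1N) in normal glands, with a median of 1156, and of 136 (X26) to 1553 (X17) in tumours, with a median of 348. Of the 24 tumours 10 lay below every gland, while X17 stood above all glands but X28.1N and the others lay within the range of the glands. The change was -1.52 (SE 0.26, adjusted p = 6.34e-06). X17 also had the highest summed smooth muscle and myoepithelium markers of the tumours (7321). Against X27.1N, X28.1N and Young alone, which hold both the lowest and the highest gland, Hspb1 changed by -1.13 and was not called (adjusted p = 0.0934).

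Hspb6 (HSP20, a small heat shock protein of smooth, heart and skeletal muscle) ranged from 133 (NewN6) to 864 (NewN2) in normal glands (median 267) and from 91.3 (X22L) to 172 (X2) in tumours (median 137). The tumours were uniformly low, and 4 of the normal glands (NewN1, NewN6, X27.1N and X28.1N) overlapped them. Its change was -0.96 (SE 0.17, adjusted p = 1.92e-05). The highest gland, NewN2, also had the highest signal of the skeletal muscle actin Acta1 (4427). Without NewN2, NewN3 and NewN7, the glands with the highest Acta1 signals, the change was -0.55 (adjusted p = 0.000453), and against X27.1N, X28.1N and Young alone it was -0.30 and not called (adjusted p = 0.16). Hspb8, which acts with the cochaperone BAG3 in muscle and elsewhere, fell by 0.50 (SE 0.16) and was not called without the same NewN glands (-0.33, adjusted p = 0.11). Nor was it called with the Gapdh ratio as a covariate (-0.38, adjusted p = 0.0738) or against X27.1N, X28.1N and Young alone (-0.16, adjusted p = 0.746).

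Hspb3, a dim member known from muscle, rose. It ranged from 32.5 to 58.5 in normal glands (median 47.3) and from 41.7 to 125 in tumours (median 65.7), and 18 of 24 tumours lay above every gland. Its change was 0.51 (SE 0.12), but 3 glands lay under the floor of 41.6 to which low signals were set, and with a higher floor the change was 0.14 and not called (adjusted p = 0.0839). Hspb2 (0.17) and Hspb7 (0.02) were not called.

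**Figure D3:**
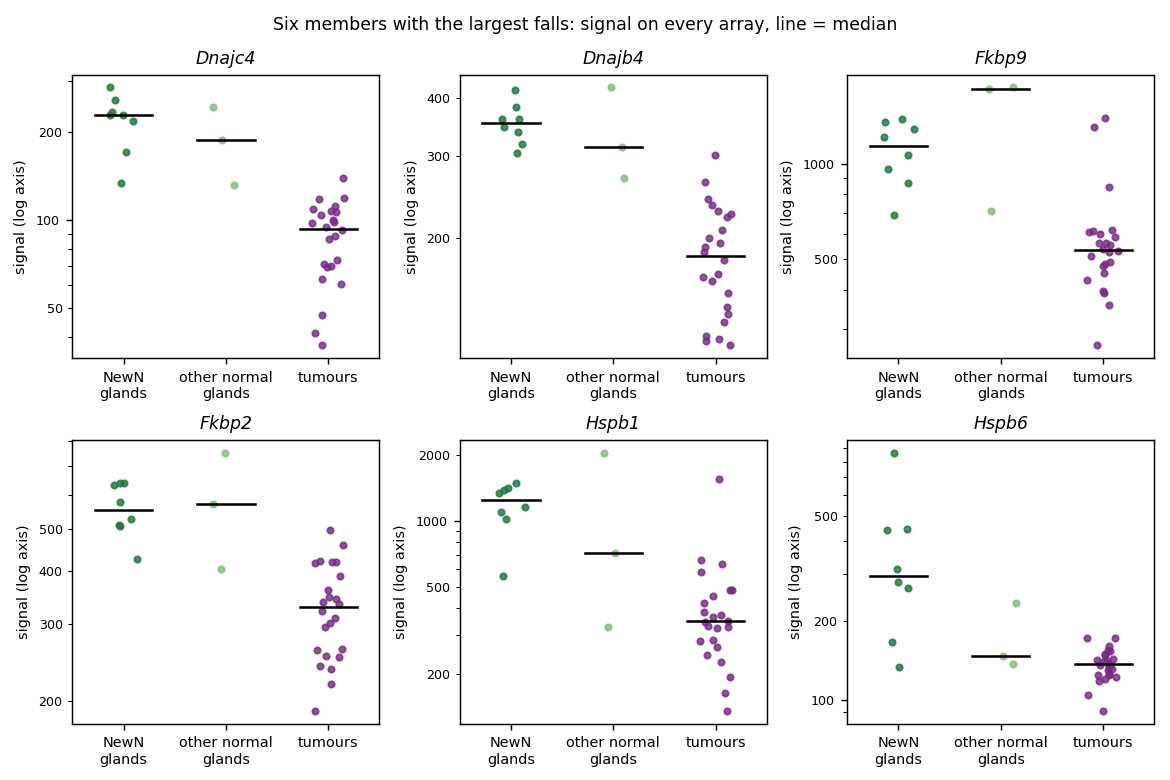
Signal (y axis, log) of the members with the largest falls on every array, for the 8 NewN glands, the 3 other normal glands and the 24 tumours, with lines at the medians. For Dnajc4 and Dnajb4 all but 1 tumour lie below every gland. For Hspb1 10 tumours lie below every gland and X17 (1553) is the highest tumour, and for Hspb6 the glands spread from 133 to 864.

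The HSP70 family supplies the main ATP-driven chaperones. Of 8 members 3 were higher, 1 was lower and 4 were not called. Hspa1l, an HSP70 best known from testis, had signals of 58.6 to 104 in normal glands (median 82.1) and of 74.8 to 231 in tumours (median 137). For this gene 21 of 24 tumours lay above every gland, and the change was 0.73 (SE 0.12, adjusted p = 6e-06). Hspa12a, a distant relative of HSP70, ranged from 124 to 254 in normal glands (median 191) and from 209 to 418 in tumours (median 267), with 18 tumours above every gland. It rose by 0.56 (SE 0.10). Hspa4, a nucleotide exchange factor of the HSP110 kind, rose by 0.34 (SE 0.10), and 14 tumours stood above every gland. Neither Hspa12a (0.28) nor Hspa4 (0.50) was called against X27.1N, X28.1N and Young alone.

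Hspa9 (mortalin, the HSP70 of mitochondria that pulls in imported proteins) was the member of the family that fell. Its signals were 699 to 1028 in normal glands (median 909) and 400 to 901 in tumours (median 672), and 14 tumours lay below every gland. The change was -0.43 (SE 0.10, adjusted p = 0.000247), and it was -0.15 and not called after quantile normalization. Another probe set of the gene also fell (-0.58), whereas a dim one with a mean signal of 67.4 rose by 0.30. The cytosolic stress-inducible Hspa1a changed by -0.23 (adjusted p = 0.272), with values that are given with the normal glands below. Hspa2, Hspa12b and Hspa13 were not called.

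J proteins carry the domain that switches on HSP70, and each directs it to a place or client. Of 31 members 9 (29.0%) were higher, 12 (38.7%) were lower and 10 were not called, where all genes had 31.4% higher and 27.5% lower. After quantile normalization 9 (29.0%) were higher and 9 (29.0%) lower, against 33.9% and 22.5% of all genes. Dnajc4 fell most. It had signals of 132 to 285 in normal glands (median 229) and of 37.4 to 140 in tumours (median 93.8), and 23 of 24 tumours lay below every gland. The change was -1.30 (SE 0.16, adjusted p = 1.77e-08), and against X27.1N, X28.1N and Young alone it was -1.13. Dnajb4, a cytosolic relative of Dnajb1, ranged from 268 to 421 in normal glands (median 347) and from 117 to 301 in tumours (median 182). Again 23 tumours lay below every gland, and X9 was the tumour that did not. The change was -0.96 (SE 0.12, adjusted p = 4e-08).

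The other called falls among J proteins reached -0.71. They comprised Dnajb2 (-0.71), Dnajc7 (-0.54), a J protein that also binds HSP90, and Dnajc14 (-0.43). Both mitochondrial members Dnaja3 (-0.39) and Dnajc15 (-0.38), the latter a part of the import motor, were lower, with 17 and 14 tumours below every gland. Dnaja2 (-0.35), a main cytosolic partner of HSP70, Dnajc5 (-0.30), the cysteine string protein of vesicles, Dnajc2 (-0.25), which sits on ribosomes, Dnajc27 (-0.20) and Dnajc8 (-0.17) completed them. After quantile normalization Dnaja2 (-0.06), Dnajc5 (-0.07) and Dnajc8 (0.0054) were not called. For Dnajc5 a dimmer probe set (mean signal 199) rose by 1.06, so the probe sets of that gene disagree.

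Among J proteins that rose, Dnajb3 (a member known from testis) came first. Its signals were 35.6 to 104 in normal glands (median 72.2) and 86.5 to 167 in tumours (median 128), and 20 tumours lay above every gland. The change was 0.82 (SE 0.11, adjusted p = 2.64e-07). Dnajc22 ranged from 36.7 to 57.4 in normal glands (median 47.6) and from 38.5 to 113 in tumours (median 71.4), with 21 tumours above every gland and 3 glands and 1 tumour under the floor. It rose by 0.61 (SE 0.10), and by 0.17 with the higher floor. Dnajc22 was dim throughout, so its fold rests on signals near the lower limit of the array. Dnajb3 was dim in the glands, with 1 under the floor, and rose by 0.70 with the higher floor (adjusted p = 3.32e-07).

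The other called rises among J proteins were of 0.61 or less. Dnajb13, known from sperm flagella, rose by 0.61 (SE 0.10), but by 0.18 and without a call against X27.1N, X28.1N and Young alone (adjusted p = 0.47). Dnaja4 rose by 0.39 (SE 0.09), with 20 tumours above every gland, Dnajc12 by 0.31, Dnajc6 (auxilin, which uncoats clathrin vesicles) by 0.27, Dnajc17 by 0.26, the heat-inducible Dnajb1 by 0.25 and Dnajb12 by 0.17. Dnajc17, a dim gene with a mean signal of 62.9 and 1 tumour under the floor, was not called after quantile normalization (0.08) or with the higher floor (0.07, adjusted p = 0.116). The other probe set of Dnajb12 fell (-0.28) and that of Dnajb1 was not called (-0.04). Among the J proteins not called were Dnajb9 (-0.14), Dnajb11 (-0.16), Dnajc1 (-0.03), Dnajc3 (-0.12) and Dnajc10 (0.12), which act in the endoplasmic reticulum. A dim probe set of Dnajc1 (mean signal 68.6) was called higher (0.28).

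Neither HSP90 member passed the test under the deposited scaling. The cytosolic Hsp90ab1 changed by 0.02 (SE 0.10) and Hsp90b1, the HSP90 of the endoplasmic reticulum, by -0.01 (SE 0.08). After quantile normalization both were called higher, at 0.25 and 0.29. Hsp90b1 had signals of 1079 to 1441 in normal glands (median 1286) and of 799 to 1658 in tumours (median 1263). Its tumours reached above and below the range of the glands, with 5 above and 4 below every gland. A dimmer probe set of Hsp90ab1 was called lower (-0.31). Hsph1, the HSP110 member, changed by 0.12 (SE 0.08) and was called higher after quantile normalization (0.21).

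The mitochondrial chaperonin, a barrel of Hspd1 (HSP60) closed by a lid of Hspe1 (HSP10), was slightly lower in tumours. Hspd1 ranged from 1610 to 2147 in normal glands (median 1931) and from 1031 to 2077 in tumours (median 1621), with 12 tumours below every gland. Hspe1 ranged from 1576 to 2434 in normal glands (median 1893) and from 1139 to 2058 in tumours (median 1723), with 7 tumours below every gland. The changes were -0.24 (SE 0.07, adjusted p = 0.00524) and -0.20 (SE 0.08, adjusted p = 0.0324). Neither was called after quantile normalization, where both turned just above 0 (0.0080 and 0.07).

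The cytosolic chaperonin CCT folds actin and tubulin. Of its 8 measured subunits 1 was higher, 2 were lower and 5 were not called, and after quantile normalization 4 were higher and 0 lower. Cct6a ranged from 535 to 971 in normal glands (median 811) and from 613 to 1248 in tumours (median 935), and 10 tumours lay above every gland. The change was 0.25 (SE 0.08, adjusted p = 0.0093), and 0.14 and not called against the NewN glands alone (adjusted p = 0.141). Cct2 had signals of 357 to 799 in normal glands (median 602) and of 334 to 736 in tumours (median 462), and its groups overlapped almost throughout. Its change was -0.26 (SE 0.10, adjusted p = 0.0296). Cct4 ranged from 1484 to 2157 in normal glands (median 1834) and from 1126 to 2081 in tumours (median 1578). Its change of -0.17 (SE 0.07, adjusted p = 0.0492) was not called without X22L (-0.16, adjusted p = 0.0646) or without X4 (-0.15, adjusted p = 0.064). After quantile normalization Cct2 changed by -0.04 and Cct4 by 0.09, both not called. Tcp1, Cct3, Cct5, Cct7 and Cct8 lay between -0.16 and 0.11 and were not called.

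Calreticulin and calnexin hold newly made glycoproteins in the endoplasmic reticulum. Calr, the soluble member, ranged from 2142 to 2991 in normal glands (median 2590) and from 2040 to 4103 in tumours (median 3023). For 14 of 24 tumours its signal was above every gland, and the change was 0.22 (SE 0.08, adjusted p = 0.0169), which quantile normalization moved to 0.46. It was not called without NewN2, NewN3 and NewN7 (0.21, adjusted p = 0.0658) or against X27.1N, X28.1N and Young alone (0.18, adjusted p = 0.438). Canx, the membrane-bound member, changed by -0.07 (adjusted p = 0.453), and was called higher after quantile normalization (0.23). A dimmer probe set of Canx was called lower (-0.28).

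Protein disulfide isomerases form and shuffle disulfide bonds. Of 6 members 2 were higher, 2 lower and 2 not called, and after quantile normalization 3 were higher and 1 lower. Pdia4 (ERp72) ranged from 401 to 789 in normal glands (median 585) and from 556 to 1089 in tumours (median 743). Of the tumours 9 lay above every gland and 0 below, and the others lay within the range of the glands. The change was 0.36 (SE 0.11, adjusted p = 0.00431). Against the NewN glands alone it was 0.22 and not called (adjusted p = 0.0867), and against X27.1N, X28.1N and Young alone it was 0.74. Pdia2, best known from pancreas, ranged from 59.1 to 152 in normal glands (median 103) and from 87.5 to 228 in tumours (median 132), a change of 0.43 (SE 0.13).

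On the lower side, Pdia5 ranged from 128 to 237 in normal glands (median 166) and from 101 to 176 in tumours (median 138). Its change was -0.28 (SE 0.08, adjusted p = 0.00265) and kept its call in every alternative in which it was tested. P4hb, which is both a disulfide isomerase and a subunit of the prolyl hydroxylase of collagen, ranged from 1546 to 2618 in normal glands (median 2431) and from 1395 to 2660 in tumours (median 2013). Its change was -0.20 (SE 0.08, adjusted p = 0.0384). That call was lost without X4 (-0.18, adjusted p = 0.0513), and after quantile normalization the change was 0.05. Pdia3 (0.01) and Pdia6 (-0.17) were not called, but Pdia3 was called higher after quantile normalization (0.27, adjusted p = 0.0012).

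Among the peptidyl-prolyl isomerases falls outnumbered rises. Of 13 members 1 (7.69%) was higher, 8 (61.5%) were lower and 4 were not called, where all genes had 31.4% higher and 27.5% lower. After quantile normalization 2 (15.4%) were higher and 4 (30.8%) lower, against 33.9% and 22.5% of all genes. Fkbp9, an isomerase of the endoplasmic reticulum, ranged from 690 (NewN6) to 1739 (X28.1N) in normal glands (median 1214) and from 267 (X2) to 1395 (X22L) in tumours (median 534). For 21 of 24 tumours its signal was below every gland. The change was -1.04 (SE 0.17, adjusted p = 5.47e-06), and -1.23 against X27.1N, X28.1N and Young alone. X22L, the tumour that stood highest, also had the highest summed fibroblast markers among tumours (31684).

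Fkbp2, another isomerase of the endoplasmic reticulum, ranged from 404 to 750 in normal glands (median 571) and from 189 to 495 in tumours (median 329). Tumours were low, 18 of them below every gland, and the change was -0.79 (SE 0.12, adjusted p = 1.02e-06). Fkbp1b ranged from 54.4 to 96.7 in normal glands (median 72.0) and from 72.6 to 161 in tumours (median 102), with 15 tumours above every gland. It rose by 0.50 (SE 0.12, adjusted p = 0.000341), but by 0.33 and without a call against X27.1N, X28.1N and Young alone (adjusted p = 0.278). The related Fkbp1a (FKBP12, the binding protein of rapamycin) went the other way, by -0.34 (SE 0.09), but by -0.05 and not called after quantile normalization. The remaining falls were those of Fkbp8 (-0.27), Fkbp14 (-0.26), Ppib (-0.26), the cyclophilin of the secretory pathway, and Fkbp15 (-0.24). Of these only Fkbp14 was called after quantile normalization (-0.26). A dim probe set of Fkbp8 (mean signal 81.9) rose by 0.41.

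Fkbp5, a cochaperone of steroid receptors whose gene is induced by glucocorticoids, androgens and progestins, had even values in the glands and uneven ones in the tumours. It lay between 137 and 220 in normal glands (median 156) and between 39.6 (X19) and 350 (X25L) in tumours (median 78.1), an 8.40-fold range. The tumours split to both sides of the glands: 16 stood below every gland, and X25L (350), X13 (286) and X25R (263) above. X25L and X25R share a title number, as do X29.1 (63.0) and X29.2 (68.5). The SD of its log2 values was 0.19 in glands and 0.90 in tumours. Its change of -0.67 (SE 0.27, adjusted p = 0.0302) was not called against the NewN glands alone (-0.68, adjusted p = 0.061). Fkbp4, its close relative in the same receptor complexes, was not called (0.10), nor were Fkbp3, Fkbp10 and Fkbp11.

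Several members differed between the 8 NewN glands and the 3 other normal glands. For 12 of 79 members (15.2%) X27.1N, X28.1N and Young all lay below every NewN gland, against 888 of 10411 genes (8.53%), and for 1 member (1.27%), Dnajb13, they all lay above, against 726 genes (6.97%). The 12 were Canx, Cct6a, Dnaja1, Dnaja2, Dnajb2, Dnajc7, Dnajc14, Fkbp4, Fkbp8, Hsp90ab1, Hspd1 and Tcp1. These counts describe the arrays and were not tested, and no label says how the kinds of gland differ. The 3 glands also had 90th percentiles of signal of 639, 668 and 695, against 716 to 763 in the NewN glands.

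Hsp90ab1 lay between 3266 and 3549 in the NewN glands and at 2350 in X27.1N, 1788 in X28.1N and 2015 in Young. Tumours spread from 1851 to 3859 (median 3103), across both kinds of gland. The change against the 3 glands was 0.56 (adjusted p = 0.00763), while against all glands it was 0.02. Fkbp4, with which HSP90 works on steroid receptors, stood at 448 to 669 in NewN glands and at 440 in X27.1N, 293 in X28.1N and 306 in Young, with a change of 0.55 (adjusted p = 0.0329) against those 3. Dnajb2 and Dnajc7 were called lower against all glands, but not against these 3. Dnajc7 lay at 526 to 707 in NewN glands, at 407, 332 and 355 in the others, and at 257 to 532 in tumours (median 365), and its change against the 3 was 0.03 (adjusted p = 0.941). That of Dnajb2 was -0.08 (adjusted p = 0.77).

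The stress-inducible HSP70 gene Hspa1a differed among the glands too. It was 326 to 441 in 7 NewN glands and 184 in NewN6, and it was 132 in X27.1N, 210 in X28.1N and 138 in Young. Tumours ranged from 111 (X22L) to 398 (X15), with a median of 239, between these levels. The change was -0.55 against the NewN glands alone (adjusted p = 0.00355) and 0.63 against the 3 others (adjusted p = 0.0625), so its sign depended on the glands used.

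**Figure D4:**
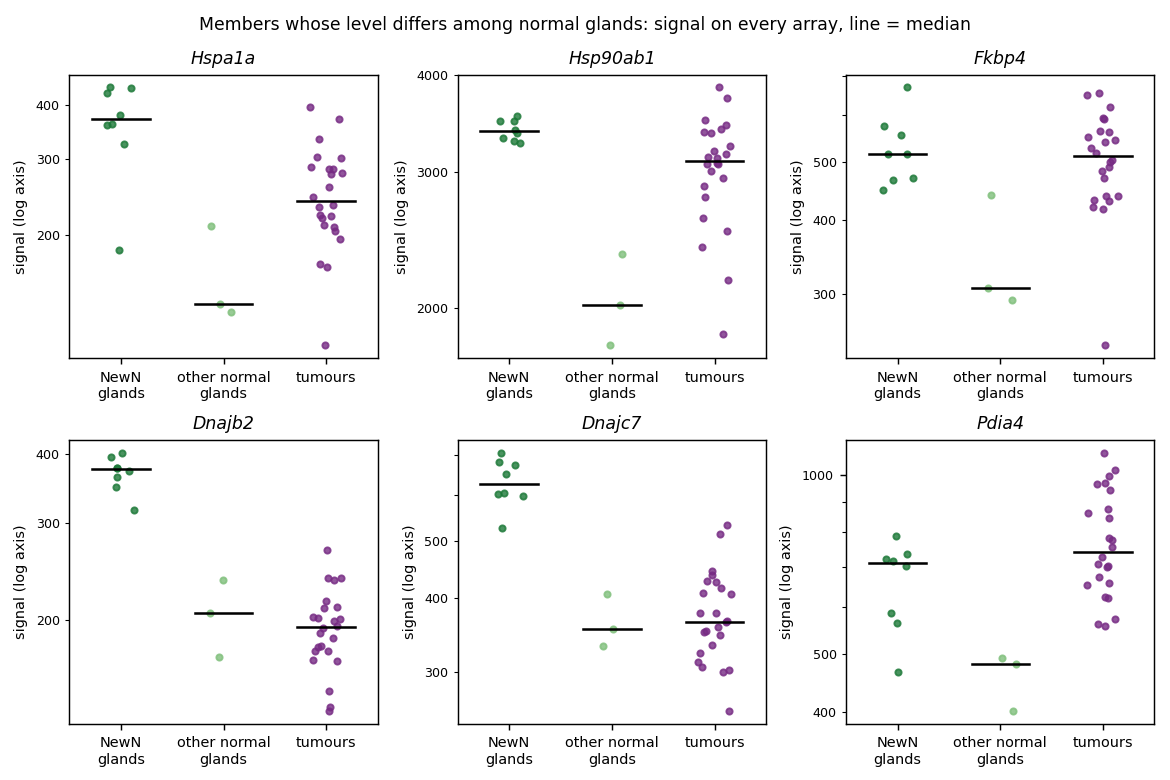
Signal (y axis, log) of members whose level differed among normal glands, for the 8 NewN glands, the 3 other normal glands (X27.1N, X28.1N and Young) and the 24 tumours, with lines at the medians. Hsp90ab1 lies at 3266 to 3549 in NewN glands and at 1788 to 2350 in the others, and the tumours cover both ranges.

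Across the 24 tumours, Pearson and Spearman correlations were computed for 28 pairs of members, with permutation p-values adjusted over the pairs. Other subunits of the cytosolic chaperonin varied with Cct5: all 7 pairs passed under the deposited scaling. Their r ran from 0.53 to 0.81 and rho from 0.48 to 0.79. The largest adjusted permutation p among the 7 was 0.0273 for r and 0.0453 for rho, both with Cct8, and without the 2 tumours farthest from the median r was 0.44 (Cct3) or more. The highest was that of Cct5 with Cct4 (r = 0.81, rho = 0.79, permutation p = 1e-05 for both, which is the least that 100000 permutations allow, adjusted p = 0.00028). Without X4 and X27, the tumours farthest from the median of Cct5, r was 0.78. X4 had the lowest Cct5 (1086) and the lowest 90th percentile of signal of all arrays (491). After quantile normalization the pair of Cct5 and Cct4 kept r = 0.65 (adjusted p = 0.0188), and none of the other 27 pairs passed, 6 of them pairs of Cct5 with r of 0.18 to 0.40.

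For the endoplasmic reticulum only pairs with Pdia4 were computed. Under the deposited scaling their median r was 0.38, against 0.65 for the pairs of Cct5. By r, Pdia4 passed with 4 of 13 partners: P4hb (r = 0.51, rho = 0.55, permutation p = 0.00962, adjusted p = 0.0299, r = 0.49 without X11 and X25R), Canx, Dnajb11 and Hsp90b1. Canx had r = 0.49 and rho = 0.55 (adjusted permutation p = 0.0414 and 0.026), and r = 0.42 without X11 and X25R. Dnajb11 had r = 0.48 and rho = 0.48 (adjusted permutation p = 0.042 and 0.0453), and r = 0.50 without them. Hsp90b1 had r = 0.47 and rho = 0.46, of which only r passed (adjusted permutation p = 0.042 and 0.0558), and r = 0.42 without them. For Pdia3 only rho passed (r = 0.45, rho = 0.48, adjusted permutation p = 0.0597 and 0.0453). After quantile normalization the highest of the 13 was 0.30, and 0 passed. Hsph1 passed with 1 of 8 partners, Dnaja1 (r = 0.59, rho = 0.59, permutation p = 0.00271, adjusted p = 0.0137, r = 0.55 without X19 and X22L). That pair had an r of 0.55 after quantile normalization, with an adjusted p of 0.072. Hsph1 and Dnaja1 carry the heat shock element shown above, but so do Hspd1 (r = 0.12) and Hspe1 (r = 0.31), which did not pass with Hsph1. The heat-inducible Dnajb1 (r = -0.0048) did not pass either, and Cct4 was not paired with Hsph1. Whether the element goes with these correlations was not tested. With 1 tumour per title number, 6 of the 28 pairs passed.

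**Figure D5:**
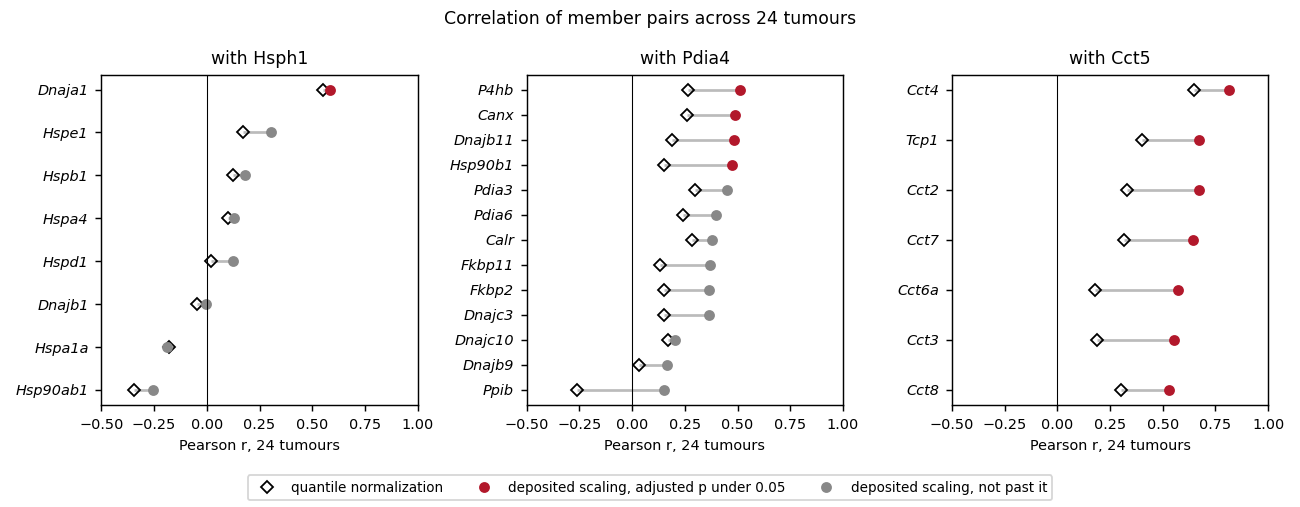
Pearson r (x axis) across 24 tumours of Hsph1, Pdia4 and Cct5 with the other members of their sets, with filled points for the deposited scaling (red where the adjusted permutation p is under 0.05) and open diamonds after quantile normalization. The 7 pairs of Cct5 lie between 0.53 and 0.81 with the deposited scaling and between 0.18 and 0.65 after quantile normalization.

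The tumour X22L was the highest tumour for 15 members and the lowest for 11, and after quantile normalization for 16 and 11. How often it was the extreme tumour over all genes was not counted. The members it led were Calr, Dnajc1, Dnajc3, Dnajc13, Dnajc24, Fkbp1a, Fkbp3, Fkbp9, Fkbp10, Fkbp14, Hspa13, Hsph1, Pdia3, Pdia6 and Ppib. Fkbp10, an isomerase that assists collagen folding, had a signal of 1173 in X22L and of 181 to 766 in the other tumours, Pdia6 had 2514 against 1089 to 1914, and Ppib had 3213 against 1439 to 2700. Fkbp3, a nuclear isomerase, stood at 721 against 161 to 327. Hsp90ab1 (1851 against 2176 to 3859), Fkbp4 (245 against 417 to 656), Hspa1a (111, with a median of 245 in the others) and Hspa4 (340 against 391 to 837) were lowest there. In X22L the luminal keratin Krt8 was 75.7 and the collagen gene Col1a1 7928, with the lowest summed luminal markers (377) and the highest summed fibroblast, macrophage (7797) and lymphocyte (784) markers among tumours. Their part in these values was not tested. Without X22L, 19 members were higher and 30 lower, and the share of all genes called in that fit was not counted. X4, the array with the lowest 90th percentile, was the lowest tumour for 21 members and the highest for 5. After quantile normalization it was the lowest for 8 and the highest for 8.

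Of 104 other genes of folding and quality control, such as cochaperones, prefoldin subunits, oxidoreductases and collagen folding enzymes, 92 were measured, and 15 were higher, 22 lower and 55 not called. Among all genes 31.4% were called higher and 27.5% lower. The median change of the 92 was -0.05, against 0.02 for all genes. After quantile normalization 29 of the 92 were higher and 14 lower, where all genes had 33.9% and 22.5%. The medians were then 0.071 for the 92 and 0.066 for all genes. The largest rises were those of the collagen lysyl hydroxylases Plod1 (0.82, SE 0.16) and Plod2 (0.80, SE 0.16), the heat shock factor Hsf2 (0.49, SE 0.07) and the HSP70 cochaperone Bag2 (0.38, SE 0.13). The largest falls were those of the cyclophilin Ppic (-0.93, SE 0.32), the collagen chaperone Serpinh1 (-0.86, SE 0.19), the extracellular chaperone Clu (-0.85, SE 0.23) and Grpel1 (-0.81, SE 0.10), the exchange factor of Hspa9. For Grpel1 23 of 24 tumours lay below every gland, with 389 to 617 in glands and 213 to 416 in tumours. Bag2 was not called after quantile normalization (0.30).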

How the data were processed

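The deposited values are linear intensities of 15923 probe sets on 35 arrays. Not given in the sources used here are the software, background correction and scaling with which the authors made them. The value 1, the lowest, occurs 3601 times, so low values had been bounded. The 57 control probe sets were left out. Before log2 was taken, signals under 41.6, the 10th percentile of the table, were raised to it; 8 members had any array there. Symbols came from the platform annotation, and the Entrez identifiers of all 79 members were found in the RefSeq table of GRCr8, with 0 symbols changed. For each gene the probe set with the highest mean was used: 102 probe sets read the members, 20 members had several, and in 4 of these called probe sets went in opposite directions. Another 4 probe sets carry several symbols each, so Hspa1b, Hsp90aa1 and Hspa8 are not analysed here. No coordinates come from the array, since no build was named.

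Groups were compared in R 4.3.3 with limma 3.58.1 (lmFit, then robust eBayes with a trend) on all 35 arrays without covariates, after the code was tested on simulated data. The members and lists were chosen with earlier results of these data known. By rule, the called members with the 2 largest rises and 2 largest falls in each role group are given with values by group, and the 4 largest of the other folding genes in each direction. Hspa1a, Hsp90ab1, Hsp90b1, Fkbp4, Fkbp5, Dnajc7 and the members named for X22L were given values after these were seen. Correlations used 100000 two-sided permutations. Alternatives covered scaling, floor, dim probe sets, spread model, array weights, a block by title number, the glands and tumours used, the Gapdh ratio and the probe sets per gene. Leaving out X4, and leaving out NewN2, NewN3 and NewN7, were added after the data were seen.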

Additional observations from a re-analysis of the deposited data

How the results depend on the processing

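Over 16 alternatives, 1110 of 1244 changes of members stayed on their side of the threshold without a called change of sign. Another 90 lost the call, 23 gained it and 21, in 18 members, changed sign where either value was called. Among the 1110 were 54 changes of sign, in 22 members, where neither value was called. After quantile normalization 17 members were called lower, and the sign turned for Canx (0.23), Cct4 (0.086), Cct5 (0.23), Cct7 (0.22), Dnaja1 (0.22), Dnajc8 (0.0054), Fkbp8 (0.014), Hsp90b1 (0.29), Hspd1 (0.0080), Hspe1 (0.074) and P4hb (0.049). Against X27.1N, X28.1N and Young alone 8 members were called higher and 7 lower, and it turned for Cct2 (0.028), Cct4 (0.024), Dnajc7 (0.030), Dnajc14 (0.055), Dnajc17 (-0.023) and P4hb (0.051). With the mean over the probe sets of a gene it turned for Dnajb12 (-0.053), Dnajc5 (0.38), Dnajc24 (0.31) and Fkbp8 (0.069). With the brighter 50% of probe sets, which hold 59 members, 11 were higher and 24 lower. Of the 28 pairs, 1 passed after quantile normalization, 6 with 1 tumour per title number and 14 without X22L, against 12. A random block by title number (consensus correlation 0.324) gave 18 higher and 28 lower, without the calls of Dnajc2 and P4hb; the labels do not say that a number marks an animal. With the Gapdh ratio as a covariate 14 were higher and 20 lower, and without NewN2, NewN3 and NewN7 16 and 22. For the brighter probe sets, the block, the Gapdh ratio and these glands, the share of all genes called was not counted. Those counts therefore do not tell whether the members differ from other genes. The causes of these changes were not tested. Precision is limited by how many arrays each group has, and dim members such as Dnajc22 and Hspb3 lie near background, as does Dnajb3 in some glands.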

Other observations

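A few members varied widely among tumours. Hspb1 had an 11.4-fold range across tumours, which rests on X17 (1553, with the next tumour, X15, at 665). The range was 8.40-fold for Fkbp5, 6.47-fold for Fkbp10, 5.22-fold for Fkbp9 and 4.48-fold for Fkbp3, and for Fkbp3, Fkbp9 and Fkbp10 the highest tumour was X22L. Dnajc10 (ERdj5, a reductase of the endoplasmic reticulum) was 827 in X11, 796 in X21 and 729 in X14, lay between 265 and 638 in the other tumours, and ranged from 336 to 446 in normal glands. At the other end, Dnajb1, Fkbp8, Dnajc8 and Dnajb12 stayed within 1.5-fold from the lowest to the highest tumour.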
